A study of Mus musculus with 10 samples.

Results

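Mitochondrial ribosomal protein genes were taken as all genes whose name on the array begins with Mrpl or Mrps, for large and small subunit, followed by a number. The array carried 77 of them, 48 Mrpl and 29 Mrps genes, among 27218 gene names, and 128 of its 41174 probes named one of the 77. Each gene is represented by its brightest probe over all arrays. All 77 of these probes were well above background on all 10 arrays, so none was lost to the filter on dim probes, which left 14438 genes for testing.

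The mitochondrial ribosome translates the few proteins that mitochondrial DNA encodes, all of them subunits of the respiratory chain and the ATP synthase. Its RNAs come from mitochondrial DNA, whereas its proteins are encoded in the nucleus, made in the cytosol and imported. Many of these proteins descend from bacterial ribosomal proteins and keep their numbers, and others exist only in mitochondria. Dividing lymphoid cells need the products of mitochondrial translation for respiration.

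The study compared leukemias and pro-B cells of mice with reduced dosage of Ebf1 and Pax5, which encode transcription factors of the B lineage. Leukemias 686, 713 and 760, labelled dHet-B-ALL, are lymph node samples of 3 Ebf1+/- Pax5+/- animals. The dHet pro-B group, of genotype Ebf1+/- Pax5+/- Rag2-/-, started from c-Kit-positive cells of fetal liver, grown for a short term on OP9 stromal feeders with IL-7, Flt3L and SCF. The wt pro-B cells were sorted as Fraction BC from bone marrow with both copies of each gene (Ebf1+/+ Pax5+/+). The 3 kinds of sample thus differ in tissue and culture as well as in genotype and disease, and animal ages are not given in the sources used here. Each of the 5 groups had 2 arrays. The labels do not say whether the 2 are separate animals or cultures, so p-values may partly measure technical spread. The dHet pro-B arrays differed in Xist and Y-linked genes and were therefore not of the same RNA.

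The share of probes well above background was 35.7%, 42.1% and 42.9% on replicates 1 of leukemias 686, 713 and 760. It was 48.6% to 52.4% on the other arrays. Those replicates 1 were scanned on 1 day and all other arrays on another. Leukemia replicates 1 were hybridised on 1 slide, leukemia replicates 2 on the second and all 4 pro-B arrays on the third, so slide and the contrast of leukemia with pro-B cells cannot be told apart. All 9 B lineage markers were well above background in each kind of sample. The log2 of their summed signal was 10.28 to 10.83 in leukemias, 11.26 to 11.38 in dHet pro-B cells and 10.78 to 10.82 in wt pro-B cells. Markers of other cells also differed between the kinds, and in such bulk samples fewer cells of a type and less RNA per cell cannot be told apart. The summed T cell markers ranged over 3.37 to 5.03 in leukemias, 3.18 to 3.49 in dHet pro-B cells and 1.9 to 2.0 in wt pro-B cells, with Cd4 not well above background on any array. The summed NK markers ranged over 2.76 to 5.38 in leukemias, 4.09 to 4.21 in dHet and 0.44 to 0.86 in wt pro-B cells, with Ncr1 not well above background. Summed over Hba-a1, Alas2 and Klf1, the erythroid markers ranged over 0.099 to 6.45 in leukemias, -3.67 to -2.86 in dHet and 0.36 to 0.82 in wt pro-B cells, with Klf1 not well above background on any array. Hba-a1 was not well above background in dHet pro-B cells and at least 236-fold higher in leukemias (limma adjusted p = 0.00515). The summed myeloid markers ranged over 3.61 to 7.01 in leukemias, 4.22 to 4.38 in dHet and 6.20 to 7.19 in wt pro-B cells, with Cd14 and Elane not well above background. The summed stromal markers ranged over -1.89 to -0.03 in leukemias, -2.17 to -2.04 in dHet and 0.46 to 1.30 in wt pro-B cells, with Col1a1, Pdgfrb and Cxcl12 not well above background. The part of these cells in the differences below was not tested.

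Levels are log2 processed signal minus the array's 75th percentile, so 0 is that percentile, and changes are differences of group means of such levels. For the 6 leukemia arrays the lowest, the median and the highest level are given, in that order. The median over the 77 genes was 3.63 and 3.50 in leukemia 686, 3.53 and 3.19 in leukemia 713, 3.62 and 3.34 in leukemia 760, 3.11 and 3.0 in dHet pro-B cells and 2.74 and 2.76 in wt pro-B cells. All 6 leukemia arrays were thus above both dHet pro-B arrays, which were above both wt pro-B arrays. The median over all genes tested stayed between 0.32 and 0.51 on the same arrays but stood in the same order. It was 0.38 to 0.51 in leukemias, 0.37 on both dHet pro-B arrays and 0.34 and 0.32 in wt pro-B cells. The order is thus not particular to the members. The 3 kinds of sample stood in the order leukemia, dHet pro-B, wt pro-B by mean level in 52 of the 77 genes. In 11 others wt pro-B cells were above dHet pro-B cells with leukemias highest, in 11 dHet pro-B cells were highest and wt pro-B cells lowest, and 3 had another order. The shares of all genes in these orders are not given, so these counts do not show whether the members stood apart.

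**Figure D1:**
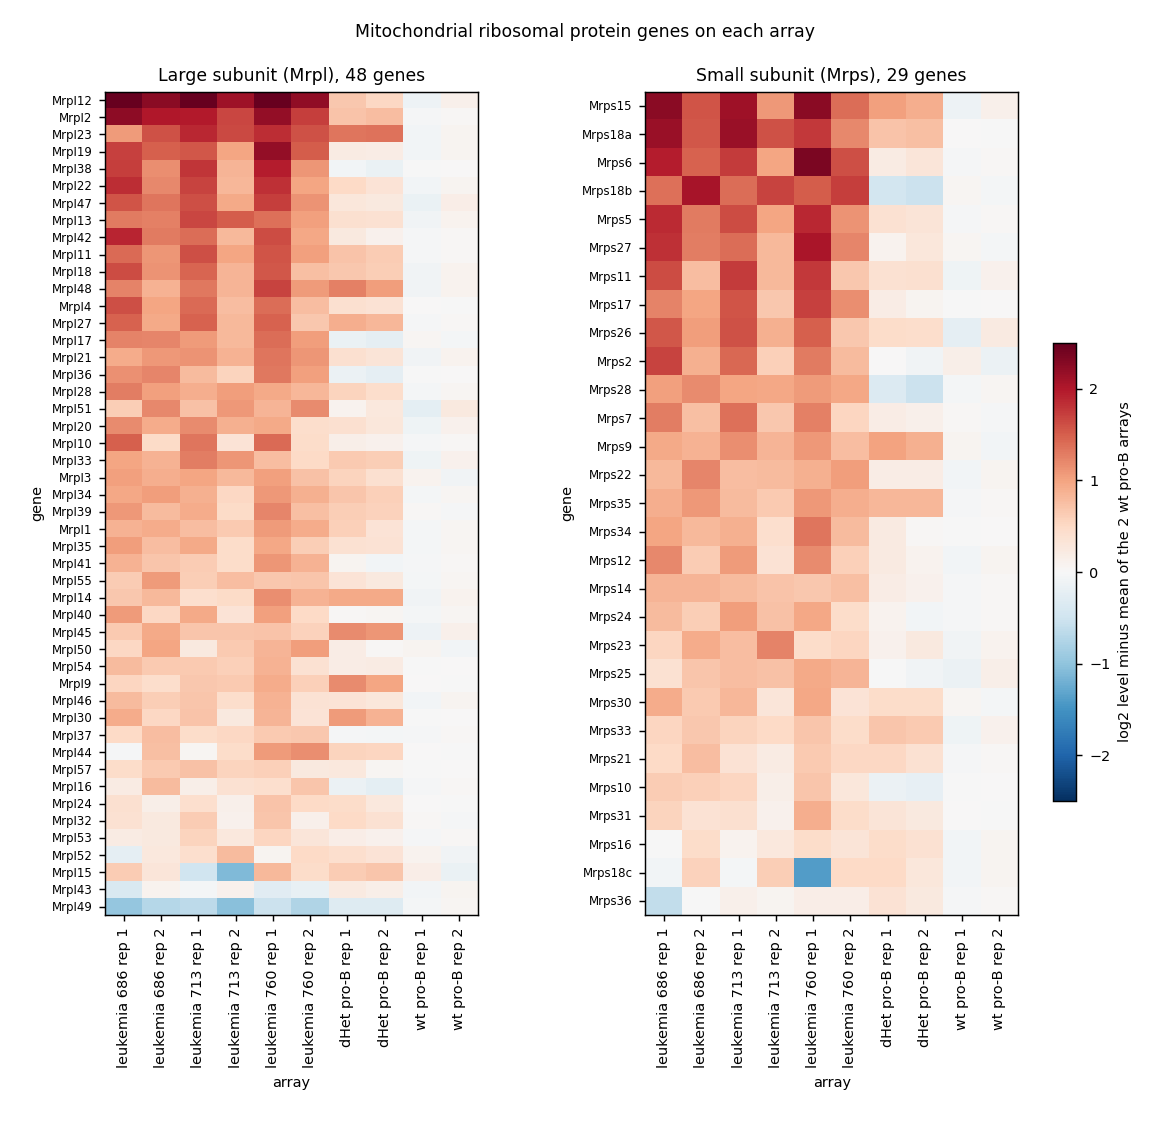
Level of each of the 77 genes (rows) on each of the 10 arrays (columns) as the difference from the mean of both wt pro-B arrays on the log2 scale, Mrpl genes left and Mrps genes right, each sorted by the change of leukemias against wt pro-B cells. Red fills most of the leukemia columns, with Mrpl12 at the top and Mrpl49 at the bottom, and the dHet pro-B columns are paler.

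Most genes of the mitochondrial ribosome were expressed at higher levels in leukemic than in wt cells. With limma over 7 samples (3 mouse means, 2 dHet and 2 wt arrays) and a threshold of adjusted p = 0.05 over all probes, 67 of 77 rose and 1 fell, where 31.3% of all genes rose and 27.5% fell. By name, 41 of 48 Mrpl genes and 26 of 29 Mrps genes rose. The rise was at least 2-fold in 29 of 77, against 18.6% of all genes. The median change was 0.90, a 1.86-fold rise, against 0.06 over all genes tested. Over genes with probes well above background on all 10 arrays, as those of all members were, it was 0.35. All 6 leukemia arrays lay above both wt arrays in 69 of the 77 genes (31.9% of all genes) and below them in 1 (27.7%). With normexp background correction 42 rose, with a median change of 0.84, against -0.02 over all genes tested. The share of all genes that rose with it is not given, so this count does not show whether the members stood apart. Array median scaling moved the median of all genes to 0.63 and that of the members to 1.46. Scaling on probes detected on all arrays moved them to -0.30 and 0.53. Such scaling shifts all genes of an array alike, so the difference between the 2 medians could only stay at 0.83.

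Among large subunit genes the largest change was that of Mrpl12, whose product is the counterpart of the bacterial stalk protein that recruits translation factors, and whose human form also binds the mitochondrial RNA polymerase. Its levels were 5.26, 5.58 and 6.02 in leukemias, against 3.82 and 3.65 in dHet pro-B cells and 3.02 and 3.27 in wt pro-B cells. No leukemia array overlapped with a pro-B array, and the change against wt was 2.47 ± 0.14 (SE, limma adjusted p = 0.000261). Mrpl2, a counterpart of a bacterial protein near the peptidyl transferase centre, had levels of 3.11, 3.44 and 3.68 in leukemias, against 2.16 and 2.22 in dHet pro-B cells and 1.42 and 1.47 in wt pro-B cells. The 3 kinds did not overlap for Mrpl2, and its change against wt was 1.97 ± 0.14 (limma adjusted p = 0.000316). Mrpl11, at the base of the stalk in bacteria, changed by 1.28 ± 0.11 and Mrpl27, named after a bacterial protein close to the peptidyl transferase centre, by 1.14 ± 0.12 (limma adjusted p = 0.000527 and 0.00082). Mrpl41, which is specific to mitochondria, changed by 0.77 ± 0.17 (limma adjusted p = 0.00971).

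Among genes named Mrps, Mrps15, Mrps18a, Mrps6 and Mrps18b had the largest changes against wt pro-B cells. Mrps15, a counterpart of a bacterial protein that contacts the large subunit, had levels of 3.04, 3.81 and 4.23 in leukemias, against 2.98 and 2.87 in dHet pro-B cells and 1.83 and 2.09 in wt pro-B cells. Its change was 1.78 ± 0.16 (limma adjusted p = 0.000537), and every leukemia array was above every pro-B array. Mrps6 had levels of 3.02, 3.70 and 4.39 in leukemias, against 2.24 and 2.34 in dHet pro-B cells and 1.99 and 2.07 in wt pro-B cells. Its change was 1.69 ± 0.20 (limma adjusted p = 0.00117), again with no overlap. Mrps12, the counterpart of the bacterial decoding centre protein in which streptomycin resistance arises, changed less, by 0.84 ± 0.14 (limma adjusted p = 0.00331).

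Mrps18a, Mrps18b and Mrps18c are paralogs of 1 bacterial protein, and in human mitochondrial ribosomes their products sit at different places, that of MRPS18A in the large subunit. Mrps18a had levels of 3.97, 4.46 and 4.94 in leukemias, against 3.49 and 3.54 in dHet pro-B cells and 2.79 and 2.76 in wt pro-B cells, a change against wt of 1.74 ± 0.16 (limma adjusted p = 0.000583). Mrps18b had levels of 0.75, 0.97 and 1.43 in leukemias, against -1.10 and -1.18 in dHet pro-B cells and -0.58 and -0.69 in wt pro-B cells, a change against wt of 1.63 ± 0.13 (limma adjusted p = 0.000379). Mrps18c, described beside them after its values were seen, had levels of 1.94, 3.56 and 3.95 in leukemias, against 3.85 and 3.62 in dHet pro-B cells and 3.27 and 3.41 in wt pro-B cells. Leukemia arrays lay on both sides of the wt arrays for Mrps18c, and its change was 0.03 ± 0.26 (limma adjusted p = 0.934). A second Mrps18c probe gave 0.56 (limma adjusted p = 0.0155), so the probes differed in their call. The difference between the paralogs was not tested.

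The gene that fell was Mrpl49, which encodes a mitochondria-specific protein of the large subunit. Its level was 2.54 at the lowest, 2.86 at the median and 3.05 at the highest of the leukemia arrays, against 3.28 and 3.26 in dHet pro-B cells and 3.54 and 3.64 in wt pro-B cells. Every leukemia array was below every pro-B array, and the change was -0.78 ± 0.13 (limma adjusted p = 0.00372). Of 2 other Mrpl49 probes, 1 changed by -0.49 (limma adjusted p = 0.0238) and the other by -0.09 (0.657). Besides Mrps18c and Mrpl15, no call was made for Mrpl24, Mrpl43, Mrpl44, Mrpl52, Mrpl53, Mrps16 and Mrps36, with changes between -0.12 and 0.58. Mrps36 had a change of -0.01 ± 0.18. Its human product was since assigned to the 2-oxoglutarate dehydrogenase complex.

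Genes that carry the number of a bacterial counterpart (Mrpl up to 36, Mrps up to 21) were 44 of the 77, and 40 of them rose with a median change of 1.00. Of the 33 with higher numbers, nearly all specific to mitochondria, 27 rose and Mrpl49 fell, with a median change of 0.73. The largest change was 2.47 among the first and 1.43 (Mrpl38) among the second. This split was made after the calls were known and was not tested.

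**Figure D2:**
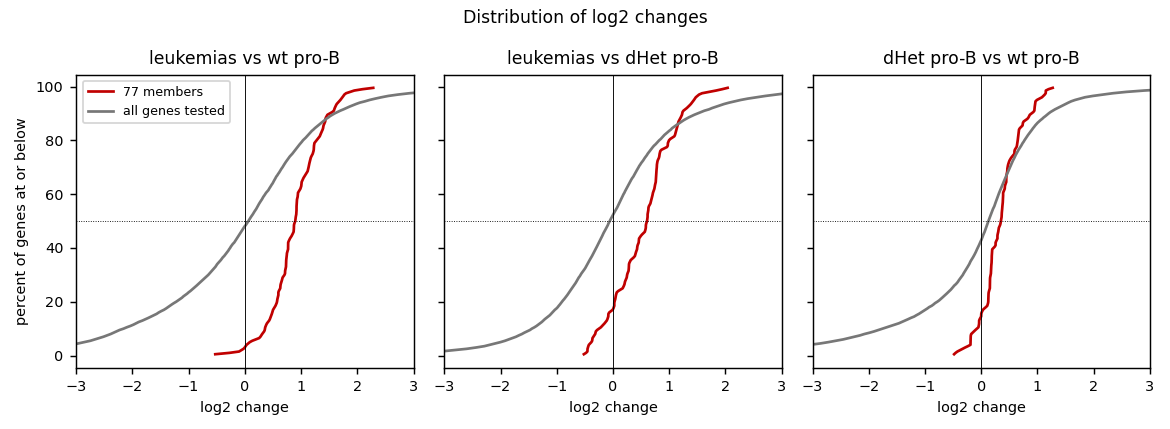
Cumulative share of genes (vertical axis, percent) at or below each log2 change (horizontal axis) in 3 comparisons, for the 77 mitochondrial ribosomal protein genes in red and all genes tested in grey. The red curve crosses 50 percent at 0.90 and 0.61 for leukemias against wt and dHet pro-B cells and at 0.35 for dHet against wt pro-B cells, and the grey curve at 0.06, -0.06 and 0.13.

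Fewer genes differed when the leukemias were set against cultured dHet pro-B cells, which share the leukemias' Ebf1 and Pax5 genotype. Here 47 of 77 rose and 3 fell, where 21.8% of all genes rose and 24.5% fell. The rise was at least 2-fold in 16, against 13% of all genes. The median change was 0.61, against -0.06 over all genes tested and 0.08 over genes with probes well above background on all 10 arrays. Of Mrpl genes 27 of 48 rose and 3 fell, and of Mrps genes 20 of 29 rose. All leukemia arrays were above both dHet arrays in 50 genes (24% of all genes) and below them in 5 (26.1%). This comparison and the one above share the leukemia arrays. Without dHet pro-B replicate 1 the median change was 0.65, against -0.04 over all genes tested. Without dHet pro-B replicate 2 it was 0.57, against -0.08.

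Mrps18b had the largest change, 2.14 ± 0.13 (limma adjusted p = 0.000498), a 4.40-fold rise, and its dHet levels given above were below its wt levels. Mrpl12 followed with 1.88 ± 0.14 and Mrpl38, which encodes a mitochondria-specific protein of the large subunit, with 1.55 ± 0.13 (limma adjusted p = 0.000748 and 0.000849). Mrpl38 levels were 1.68, 2.27 and 2.78 in leukemias, against 0.75 and 0.66 in dHet pro-B cells and 0.82 and 0.83 in wt pro-B cells, so the pro-B kinds differed little and both lay below every leukemia array. Mrps28, of the small subunit, had levels of 5.03, 5.07 and 5.25 in leukemias, against 3.72 and 3.53 in dHet pro-B cells and 4.01 and 4.12 in wt pro-B cells, and changed by 1.47 ± 0.13 (limma adjusted p = 0.000985). The 6 leukemia arrays were close together for Mrps28 and did not overlap with either pro-B kind. Mrps6 changed by 1.43 ± 0.20 and Mrpl19, a counterpart of a bacterial large subunit protein, by 1.38 ± 0.19 (limma adjusted p = 0.00332 and 0.00329). Mrps2 and Mrps25, both of the small subunit, changed by 1.15 ± 0.16 and 0.78 ± 0.17 (limma adjusted p = 0.00323 and 0.0126).

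Mrpl45, Mrpl9 and Mrpl49 fell against dHet pro-B cells. Mrpl45, whose human product anchors the ribosome to the inner membrane, had levels of 3.04, 3.16 and 3.42 in leukemias, against 3.66 and 3.57 in dHet pro-B cells and 2.35 and 2.59 in wt pro-B cells. Leukemias thus lay between the pro-B kinds without overlap, with changes of -0.43 ± 0.14 against dHet and 0.72 ± 0.14 against wt (limma adjusted p = 0.0456 and 0.0063). A second Mrpl45 probe changed by -0.01 against dHet (limma adjusted p = 0.956) and by 1.26 against wt (0.00101). Mrpl9, a counterpart of a bacterial large subunit protein, had levels of 0.74, 0.93 and 1.22 in leukemias, against 1.49 and 1.29 in dHet pro-B cells and 0.31 and 0.29 in wt pro-B cells. It also lay between them, with changes of -0.45 ± 0.14 against dHet and 0.63 ± 0.14 against wt (limma adjusted p = 0.0437 and 0.0112). Mrpl49 changed by -0.46 ± 0.13 (limma adjusted p = 0.0316), and neither of its other probes passed. Of 27 other settings of the processing, 8 kept the call of Mrpl45, 12 that of Mrpl9 and 9 that of Mrpl49.

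The leukemia arrays of each slide gave the same order. On slide 1 the mean of the 3 leukemias was above the wt mean in 73 of 77 genes with a median difference of 1.01, and on slide 2 in 74 with a median of 0.80. Against dHet pro-B cells it was higher in 64 genes with a median of 0.61 on slide 1 and in 61 with a median of 0.39 on slide 2. Replicates 1 of leukemias 686, 713 and 760 were above replicates 2 in 48, 61 and 63 of the 77 genes. With a random block for slide, 41 genes rose against wt and 15 against dHet pro-B cells. With normexp background correction 20 rose against dHet pro-B cells, with a median change of 0.50, against -0.11 over all genes tested. The shares of all genes that rose under these settings are not given, so these counts do not show whether the members stood apart.

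**Figure D3:**
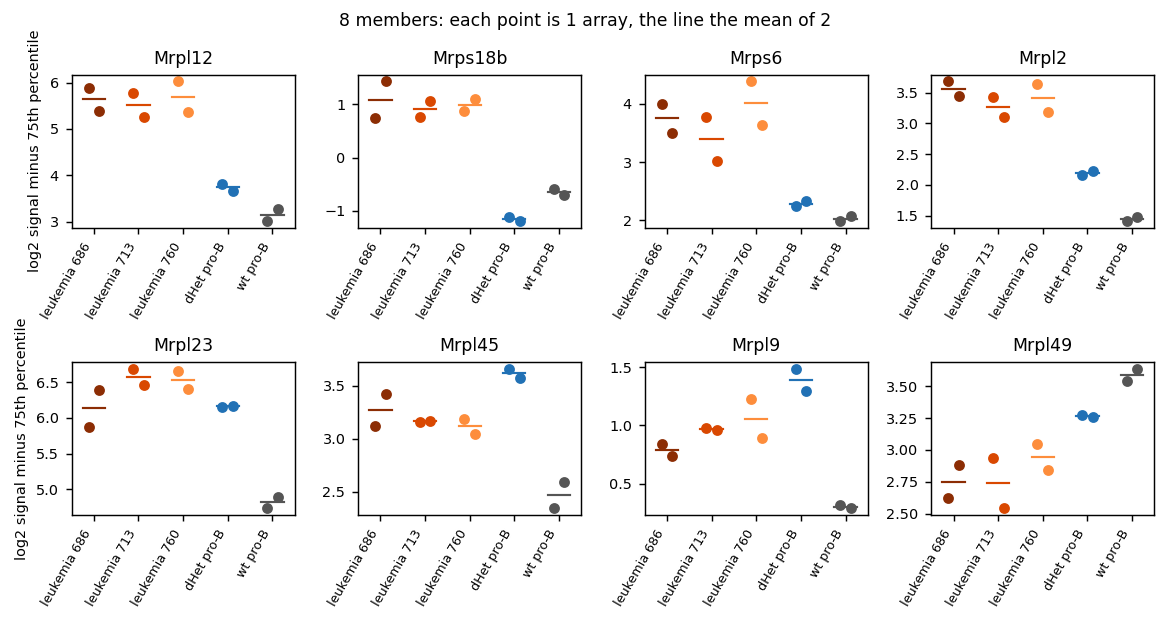
Level of 8 genes on each array (points, log2 signal minus the array's 75th percentile) and the mean of each group's 2 arrays (lines), with leukemias left of dHet and wt pro-B cells. Mrpl12, Mrps18b, Mrps6 and Mrpl2 are higher in every leukemia array than in any pro-B array, Mrpl45 and Mrpl9 are highest in dHet pro-B cells, and Mrpl49 is lowest in leukemias.

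The dHet and wt pro-B cells differ in genotype, tissue and culture, and their arrays share a slide. In limma over all 10 arrays in 5 groups, 12 of the 77 genes rose, the same share as the 15.6% of all genes. The 5 groups share 1 estimate of spread, and the 2 arrays of each leukemia lay on different slides. Over the members these 2 differed by a median of 0.30 to 0.37, against 0.08 in dHet and 0.09 in wt pro-B cells. The p-values thus also hold the spread between leukemia slides. With slide as a random block 29 of the 77 rose, a larger share than the 28.3% of all genes. With scan day as a block 35 of the 77 rose, a larger share than the 30.8% of all genes. Without such a block none fell, with 1 at an unadjusted p below 0.05, whereas 14.2% of all genes fell. The median change was 0.35, against 0.13 over all genes. It was 0.25 over genes with probes well above background on all 10 arrays, as those of all members were. Both dHet arrays were above both wt arrays in 61 of 77 genes (48.6% of all genes) and below them in 8 (35.4%). The rise was at least 2-fold in 4 genes (10.6% of all genes). Leaving out 1 of the 4 pro-B arrays gave a median change of 0.28 to 0.39, against 0.10 to 0.16 over all genes. In the authors' deposited value table, used in place of the scanner signal, 9 rose and 3 fell, and with quantile normalization 9 rose and 2 fell. The shares of all genes under these 2 settings are not given, so these counts do not show whether the members stood apart.

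Mrpl23, the counterpart of a bacterial protein at the exit of the peptide tunnel, had the largest change. Its levels were 6.15 and 6.17 in dHet pro-B cells, against 4.74 and 4.89 in wt pro-B cells, a change of 1.35 ± 0.23 (limma adjusted p = 0.00536). In leukemias it had 5.87, 6.43 and 6.69, on both sides of the dHet arrays, and its change of leukemias against dHet was 0.25 ± 0.18 (limma adjusted p = 0.275). Mrpl45 and Mrpl9, with the levels given above, changed by 1.15 ± 0.19 and 1.09 ± 0.18 (limma adjusted p = 0.00459 and 0.00519). Mrpl48, a mitochondria-specific large subunit protein gene, had 2.63 and 2.43 in dHet pro-B cells, against 1.28 and 1.48 in wt pro-B cells, a change of 1.15 ± 0.28 (limma adjusted p = 0.0227). Mrpl30 and Mrpl14, counterparts of bacterial large subunit proteins, changed by 0.97 ± 0.26 and 0.95 ± 0.18 (limma adjusted p = 0.0333 and 0.00844). The small subunit genes that rose were Mrps9, Mrps35 and Mrps33, the first by 0.95 ± 0.20 and Mrps35 by 0.83 ± 0.17 (limma adjusted p = 0.0121 and 0.0107). Mrpl2, Mrpl33 and Mrpl34 completed the list.

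Set side by side, 46 genes rose in leukemias against both pro-B kinds and were not called between the pro-B kinds (13.3% of all genes), and Mrpl2 rose in all 3 comparisons (2.12% of all genes). A further 9 genes, among them Mrpl14, Mrpl23, Mrpl30, Mrpl48, Mrps9 and Mrps35, rose in both leukemias and dHet pro-B cells against wt and were not called between leukemias and dHet pro-B cells (6.29% of all genes). For Mrps9 the levels were 3.15, 3.28 and 3.53 in leukemias, against 3.38 and 3.26 in dHet pro-B cells and 2.44 and 2.31 in wt pro-B cells. Another 9, Mrpl27 among them, rose in leukemias against wt and passed in neither other comparison (6.98% of all genes). These comparisons share samples 2 by 2, so the patterns are not independent of each other.

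Each leukemia was set against the other two in the 10-array fit, where p-values measure the spread between arrays and not between mice. Leukemia 760 was high in Xist (3.59 and 4.48) and low in the Y-linked Ddx3y (-3.13 and -6.34), unlike leukemias 686 and 713. Between 760 and the other two, sex and mouse therefore cannot be told apart. No member passed in leukemia 686, with 1 at an unadjusted p below 0.05, and none in leukemia 760, with 4. In leukemia 760, 1 passed after adjustment with the replicate number as a block, which is the slide for leukemia arrays only. Among all genes, 1.5% rose and 2.05% fell in leukemia 686, and 4.83% rose and 6.18% fell in leukemia 760. In leukemia 713, where 8.06% of all genes rose and 5.76% fell, Mrpl15 fell and no member rose. The median change over the members was 0.08, -0.13 and 0.05 in leukemias 686, 713 and 760, and none of the 3 kept its sign under all settings. With normexp background correction they were 0.42, 0.14 and -0.58. Array medians gave -0.27 in leukemia 686, as against -0.36 over all genes. Leaving out an array gave -0.03 for leukemia 686 (without its replicate 1), 0.05 for leukemia 713 (without its replicate 2) and -0.11 for leukemia 760 (without its replicate 1).

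Mrpl15, the gene of a counterpart of a bacterial large subunit protein, had 2 probes that behaved differently, and their sequences are printed because the call rests on 1 of them. Both lie on the minus strand of chromosome 1 (mm9) and are given 5′ to 3′. The capitals mark a unit of 26 bases that a search for repeats within each probe found 2 times in the brightest probe. No other of the 128 probes held a repeated unit of more than 8 bases.
Brightest probe, chr1:4771675-4771734, annotated to a transcript of Ensembl: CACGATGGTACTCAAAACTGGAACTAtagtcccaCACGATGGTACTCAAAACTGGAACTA
Other probe, chr1:4767667-4767726, annotated to the RefSeq transcript: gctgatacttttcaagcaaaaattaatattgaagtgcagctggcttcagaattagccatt

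The brightest probe had levels of 1.80 and 1.21 in leukemia 713, against 2.94 and 2.62 in leukemia 686 and 3.12 and 2.76 in leukemia 760. Both arrays of leukemia 713 were the lowest of all 10 arrays, the pro-B arrays having 2.93 and 3.0 (dHet) and 2.47 and 2.15 (wt). The change of leukemia 713 against the other two was -1.36 ± 0.23 (limma adjusted p = 0.00994), and within slides 1 and 2 it was -1.23 and -1.48. The other probe changed by -0.57 ± 0.19 and did not pass (limma adjusted p = 0.115). Against wt pro-B cells the brightest probe changed by 0.10 in leukemias (limma adjusted p = 0.854), whereas the other changed by 1.51 (0.00199). Against dHet pro-B cells the changes were -0.56 for the brightest probe (limma adjusted p = 0.337) and 0.85 for the other (0.0209). By its RefSeq probe, Mrpl15 was therefore among the genes that rose in leukemias against both pro-B kinds. Whether the repeated unit bears on the signal of the brightest probe was not tested.

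**Figure D4:**
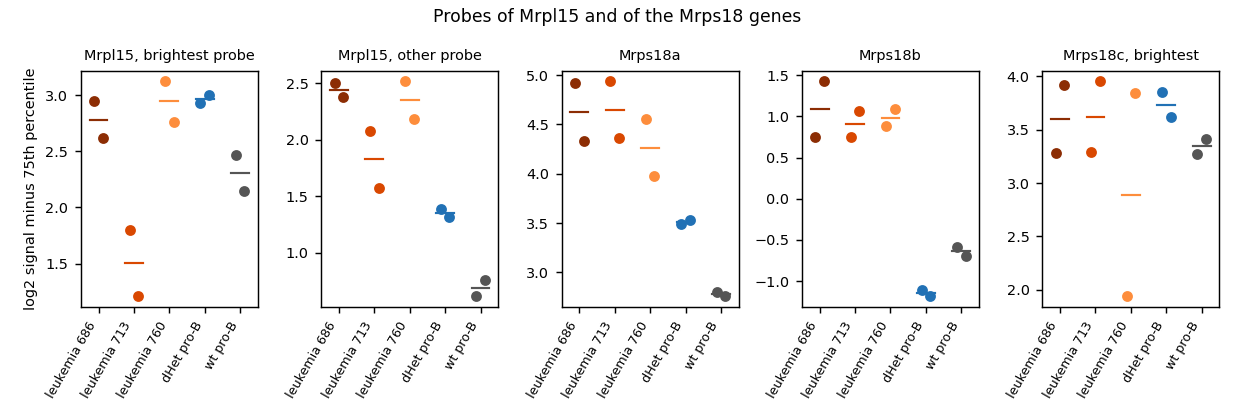
Level on each array (points, log2 signal minus the array's 75th percentile) and mean of each group (lines) for 2 probes of Mrpl15 and for the brightest probes of Mrps18a, Mrps18b and Mrps18c. The brightest Mrpl15 probe is lowest in leukemia 713, the other Mrpl15 probe, Mrps18a and Mrps18b are higher in all leukemia arrays than in pro-B arrays, and Mrps18c overlaps.

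Several probes per gene were kept for 30 of the 77 genes. All probes of a gene had the same call in 17 of them for leukemias against wt, in 19 against dHet pro-B cells and in 26 between the pro-B kinds. For leukemias against wt, 4 genes had another probe that passed in the opposite direction, namely Mrpl27 (-2.58), Mrps2 (-1.69), Mrps9 (-1.75) and Mrps25 (-1.12). These other probes were well above background on 1, 3, 3 and 5 of the 6 leukemia arrays. Those of Mrpl27, Mrps2 and Mrps9 are annotated to cDNA or Ensembl transcripts other than the RefSeq transcript of the brightest probe. That of Mrps25 is annotated to the same RefSeq transcript as its brightest probe, so the direction of Mrps25 against wt depends on the probe. Against dHet pro-B cells the same Mrps2 probe passed with -0.70.

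All 6 genes of mitochondrial ribosomal proteins with other names rose in leukemias against wt: Dap3, Ptcd3, Chchd1, Aurkaip1, Gadd45gip1 and Ict1. Their median was 0.70, against 0.06 over all genes tested, of which 31.3% rose. The other Dap3 probe and 1 of 2 other Ptcd3 probes fell, and the other Gadd45gip1 probe did not pass. Against dHet pro-B cells Ptcd3 (1.12), Chchd1 (0.78) and Gadd45gip1 (0.64) rose, where 21.8% of all genes did. The other probes of Chchd1 and Gadd45gip1 rose as well, but 1 of 2 other Ptcd3 probes fell (-0.87). Between the pro-B kinds none of the 6 passed with its brightest probe, where 15.6% of all genes rose and 14.2% fell. The other Gadd45gip1 probe fell there (-1.12). Of 23 genes of ribosome assembly and rRNA modification, 11 rose and 1 fell against wt (31.3% and 27.5% of all genes), and 10 rose and 1 fell against dHet (21.8% and 24.5% of all genes). Noa1, a GTPase of small subunit assembly, changed by 1.82 against wt and 1.80 against dHet, and Mrm3, a methyltransferase of the large rRNA, by 1.40 and 1.99. Rbfa, a small subunit assembly factor, changed by 1.33 against wt and Mrm1, another rRNA methyltransferase, by 1.04 against dHet. Mtg2, a GTPase of large subunit assembly, fell by 0.44 and 0.41 on the log2 scale. Between dHet and wt pro-B cells Mterf4 rose by 0.68 and Nsun4, its partner in rRNA methylation, fell by 0.88, and the second probe of neither passed.

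Of 16 mitochondrial translation factors, 12 rose and 1 fell in leukemias against wt, where 31.3% of all genes rose and 27.5% fell. Against dHet 6 rose and 1 fell (21.8% and 24.5% of all genes), and between dHet and wt pro-B cells 3 rose and 1 fell (15.6% and 14.2%). Tsfm, the exchange factor of the elongation factor Tufm, changed by 1.74 against wt and 1.70 against dHet. Lrpprc, which with Slirp stabilises mitochondrial mRNAs, changed by 1.44 and 1.25, but its second probe passed in neither. Slirp changed by 1.12 against wt, and by 0.98 in dHet against wt pro-B cells, where its second probe did not pass. Pdf, the peptide deformylase, changed by 1.26 against dHet. The release factor gene Mtrf1l fell by 0.77 in leukemias and by 0.86 in dHet pro-B cells, both against wt. Oxa1l, which inserts new chains into the inner membrane, fell by 0.50 in leukemias against dHet and rose by 1.04 in dHet against wt pro-B cells, where Mrrf, a ribosome recycling factor, rose by 0.79. The other 2 Oxa1l probes passed in neither.

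Of 13 genes of mitochondrial DNA transcription and RNA processing, 4 rose and 3 fell in leukemias against wt, shares like the 31.3% and 27.5% of all genes. Against dHet 7 rose and 2 fell, where 21.8% and 24.5% of all genes did. Tefm, the transcription elongation factor, changed by 1.64 and 1.19, and Elac2, which cuts the 3′ ends of tRNAs, by 1.16 and 1.44. Ssbp1, the DNA-binding protein of the replication fork, changed by 1.15 against wt. Tfam, which packages mitochondrial DNA and starts its transcription, changed by -1.49 and -2.15 with its brightest probe, but another of its probes rose by 0.94 and 1.05, so its direction depends on the probe. Mterf1b fell by 0.53 and 0.91 and Polg, the mitochondrial DNA polymerase, fell by 0.55 against wt. Between the pro-B kinds Polg2, its accessory subunit, fell by 1.09 in dHet.

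Among 10 regulators named in the literature for mitochondrial and growth genes, 5 rose and 2 fell in leukemias against wt (31.3% and 27.5% of all genes), and 3 rose against dHet (21.8% of all genes). Gabpb1 and Yy1 were among the 5, by 0.71 and 0.41 with their brightest probes. All 3 other Gabpb1 probes fell (-1.34, -0.95 and -3.54), as did 1 of 2 other Yy1 probes (-0.43), so the direction of both depends on the probe. Myc, a driver of growth and ribosome genes, changed by 3.40 against wt and 4.66 against dHet. Pprc1 and Ppargc1b, coactivators of the PGC-1 family, changed by 2.10 and 2.19 against wt and by 3.46 and 2.91 against dHet. Nrf1, a transcription factor of nuclear genes for mitochondria, fell by 1.90 in leukemias and by 1.68 in dHet pro-B cells, both against wt. Of its other 2 probes, 1 fell by 0.62 in leukemias and neither passed in dHet pro-B cells. Ppargc1a was well above background only in wt pro-B cells, so it was at least 8.53-fold lower in leukemias and at least 9.85-fold lower in dHet pro-B cells. These bounds set the wt mean against the dimmest signal well above background on each array of the other group, or the probe's own where that was higher, and the limma adjusted p was 0.000485 and 0.000292. Between the pro-B kinds Myc, Pprc1 and Esrra also fell in dHet, by 1.26, 1.36 and 0.60, and Mycn rose by 1.13. A regulator that moved beside the members is no measure of its action on them, which was not tested.

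**Figure D5:**
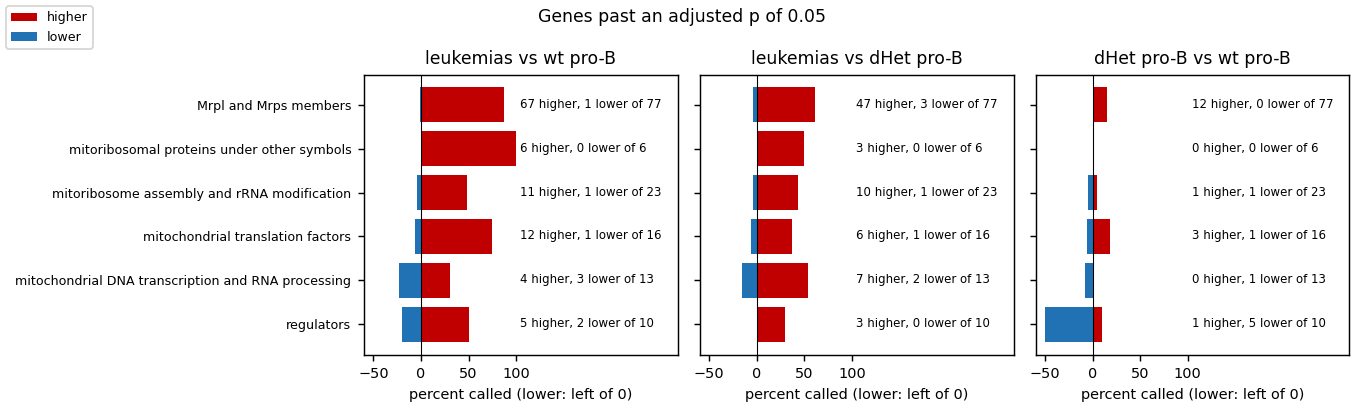
Percent of each gene list past an adjusted p of 0.05 in 3 comparisons, higher to the right of 0 in red and lower to the left in blue, with the counts beside the bars. The Mrpl and Mrps genes and the 6 proteins with other names have the largest red shares against wt pro-B cells, and the regulators have the longest blue bar between dHet and wt pro-B cells.

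Promoter sequence was looked at because the members moved together. RefSeq promoters (GRCm38.p6, 250 bases before to 50 after the start) were matched for 68 of the 77 genes and compared with all 17492 promoters of the table that belong to protein-coding genes. Each motif was searched on both strands as its letters: CCGGAAG (ETS family), GCGCATGCG (NRF1), ATGGCGGC (YY1) and CACGTG (E-box, bound by Myc with Max). Matches of different motifs overlapped in 0 of the member promoters. The ETS letters stood in 24 member promoters (35.3%, against 11.9% of all promoters), the NRF1 letters in 7 (10.3% against 2.41%) and the YY1 letters in 12 (17.6% against 3.19%). The E-box stood in 5 (7.35% against 7.90%), those of Mrpl2, Mrpl20, Mrpl36, Mrpl37 and Mrps18c. Of the 68, 31 held none of the 4. Among promoters with at least 21 CpG, the shares were 40.5% of 37 members against 20.2% of all for ETS, 13.5% against 4.33% for NRF1, 16.2% against 6.29% for YY1 and 5.41% against 11.9% for the E-box.

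The change in leukemias against wt had a median of 0.92 in the 24 members with the ETS letters and 0.79 in the 44 without, 0.92 with and 0.84 without the NRF1 letters, 0.97 with and 0.87 without the YY1 letters, and 0.93 with and 0.87 without the E-box. The interquartile range of all members was 0.63 to 1.21, and no test was made. The promoters of 4 members are printed 5′ to 3′ with the matches in capitals. Mrps18b and Mrps18a are the paralogs that rose, Mrpl9 was highest in dHet pro-B cells, and Mrpl49, the gene that fell, holds none of the 4 motifs.
Mrps18b, chr17:35916391-35916690, minus strand: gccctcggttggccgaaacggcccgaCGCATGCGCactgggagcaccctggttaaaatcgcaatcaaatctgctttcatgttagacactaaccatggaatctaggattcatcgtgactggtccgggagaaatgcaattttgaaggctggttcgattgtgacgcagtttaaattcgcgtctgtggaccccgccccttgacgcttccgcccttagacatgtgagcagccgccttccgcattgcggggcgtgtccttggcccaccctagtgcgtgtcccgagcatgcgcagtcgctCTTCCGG
Mrps18a, chr17:46110754-46111053, plus strand: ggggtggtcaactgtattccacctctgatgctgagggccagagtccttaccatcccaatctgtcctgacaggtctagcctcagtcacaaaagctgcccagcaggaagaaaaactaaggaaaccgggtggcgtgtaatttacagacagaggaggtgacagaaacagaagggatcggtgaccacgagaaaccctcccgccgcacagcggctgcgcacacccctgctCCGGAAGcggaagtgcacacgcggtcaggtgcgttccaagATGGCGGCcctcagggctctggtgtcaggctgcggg
Mrpl9, chr3:94443086-94443385, plus strand: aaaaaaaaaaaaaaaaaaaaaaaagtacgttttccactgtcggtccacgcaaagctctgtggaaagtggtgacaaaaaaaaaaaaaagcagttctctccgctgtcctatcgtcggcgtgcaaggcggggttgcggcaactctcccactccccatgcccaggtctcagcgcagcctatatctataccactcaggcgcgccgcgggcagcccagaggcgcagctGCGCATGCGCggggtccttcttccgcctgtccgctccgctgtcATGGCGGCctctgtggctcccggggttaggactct
Mrpl49, chr19:6057706-6058005, minus strand: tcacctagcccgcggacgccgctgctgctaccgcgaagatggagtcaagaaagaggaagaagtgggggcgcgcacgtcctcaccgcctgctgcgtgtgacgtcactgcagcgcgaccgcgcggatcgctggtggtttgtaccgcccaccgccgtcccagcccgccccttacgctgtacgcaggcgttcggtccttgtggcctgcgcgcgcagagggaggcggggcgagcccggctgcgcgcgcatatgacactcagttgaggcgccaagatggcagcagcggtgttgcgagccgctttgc

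The Mrps18b promoter holds the NRF1 letters near its upstream end and the ETS letters downstream of the start, on the strand opposite to their spelling above. In Mrps18a the ETS letters precede the start and the YY1 letters follow it. In Mrpl9 the NRF1 letters read the same on both strands with 1 base of offset, and the YY1 letters again follow the start. Such matches describe these windows only, and the binding of any factor was not measured here.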

How the data were processed

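Per the file headers, the deposited scanner files hold intensity values of 1-colour (Cy3) Agilent arrays made by Feature Extraction 10.5.1.1 (9.1 per the submitters' processing notes), background-subtracted and detrended within each array. Probe coordinates are on mm9. The authors' deposited value table of log2 values was used as an alternative, and how it was centred and background-corrected is unknown. Control and outlier spots were left out, spots of a probe averaged, and log2 signals scaled to each array's 75th percentile. A probe was kept (22302 were) where both arrays of some group had it well above background. Tests used limma 3.58.1 under R 4.3.3 (lmFit, eBayes, Benjamini-Hochberg over all kept probes) and the data.table package (1.17.8). The fit of leukemias against wt pro-B cells was run on simulated data with independent noise and no slide or mouse effect. That run cannot show how the fit behaves under such effects. A marker of other cells is not reported here. The number of arrays limits the precision. Leukemia arrays of a mouse were averaged against pro-B cells. Members, lists and the rule for named genes were chosen with earlier results of these data known. Named were the 6 largest changes per direction and comparison, the 2 largest per leukemia, members with opposed calls or probes, and 6 members fixed by place in the ribosome. Same-numbered leukemia arrays share a slide, and their deviations from group means correlated across probes at r of 0.44 to 0.633. For pairs with a pro-B group r was -0.0401 to 0.076, so the number pairs only the leukemia arrays.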

Additional observations from a re-analysis of the deposited data

Results flagged for a closer look

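The change of Mrpl15 in leukemia 713 against the other 2 leukemias was -1.36 on the log2 scale (limma adjusted p = 0.00994), a difference between leukemias under the same contrast. It was seen with the brightest probe, whose call was lost without leukemia 713 replicate 2 (-1.06, limma adjusted p = 0.0706), with normexp background correction (-0.97, 0.311) and without the filter on dim probes (0.0566).

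For Mrpl23, the lowest of the 6 leukemia arrays, replicate 1 of leukemia 686, stood apart from the others, with a gap to the next array of 0.645 of the whole range, above Dixon's critical value for 6 arrays. Fewer probes were well above background on that array than on any other. Among 25 named members this was the only one set apart, where chance sets apart about 1 in 20, and its cause was not tested.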

How the results depend on the processing

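The median change of the members minus that of all genes tested stayed above 0 under every setting run, at 0.54 to 0.90 for leukemias against wt, 0.44 to 0.68 for leukemias against dHet and 0.087 to 0.27 for dHet against wt pro-B cells. Array median scaling, scaling on detected probes, arrays as replicates, the replicate block and the random slide block could not move this difference. The medians themselves moved with the scaling: 0.54 with quantile normalization, 1.46 with array medians, 0.53 with probes detected on all arrays and 0.54 with the authors' deposited table for leukemias against wt (0.15, 0.71, 0.13 and 0.12 for dHet against wt), 0.82 with array medians and 0.39 with scan day as a block or slide 2 only for leukemias against dHet. The counts that follow are of members, and the shares of all genes under the same settings are not given beside them. With normexp background, 42 rose against wt, 20 rose and 0 fell against dHet (34 and 1 at an unadjusted p below 0.05), and 0 rose in dHet against wt (7 unadjusted). A random block for slide gave 41 that rose and 0 that fell against wt (1 unadjusted), 15 rose and 0 fell against dHet (0 unadjusted), and 29 rose and 2 fell in dHet against wt. Counts of members that fell against wt were 2 with quantile normalization, detected probes, the authors' deposited table or the mean of a gene's probes, and 0 with array medians. Against dHet they were 5 with quantile normalization, detected probes or scan day as a block, 7 with the authors' deposited table, 1 with arrays as replicates or slide 1 only, and 0 with array medians, without the filter or without mouse 686. Leaving out 1 array gave 22 to 46 that rose and 0 to 2 that fell against dHet, 2 to 12 that rose in dHet against wt, 0 to 1 called in leukemia 713 and 0 to 1 in leukemia 760. In dHet against wt 3 rose without the filter and 35 with a scan day block. There 2 fell with quantile normalization or scan day, 1 with detected probes and 3 with the authors' deposited table. In leukemia 713, 0 were called with normexp or without the filter, 2 with quantile normalization or detected probes and 7 with the authors' deposited table. In leukemia 760, 1 was called with detected probes or with slide as a block, and 4 with the authors' deposited table. With the replicate block, 67 rose and 1 fell against wt, 43 rose and 3 fell against dHet, 15 rose in dHet against wt and 1 was called in leukemia 760. The mean of a gene's probes reversed Mrpl27 (-0.72), Mrps2 (-0.21) and Mrps25 (-0.20) against wt, each through the opposed probe named above. Other causes were not tested. The settings for single slides and slide within leukemias were added after the data were seen. In the 3 comparisons between kinds of sample, 1675 results for named members under other settings kept their outcome, whether called or not called. A call was lost in 162 and gained in 35, and 3 reversed. Comparisons between leukemias are not in these counts. Precision is limited by 2 arrays a group, and slide cannot be told apart from leukemia against pro-B.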
